A study of Mus musculus with 2 samples.

Results

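The laminin chains, the proteins that tie laminin into basement membranes, and the integrin subunits were compared in ovaries of gonadotropin-primed mice given ulipristal acetate or oil. Members were all probe sets whose platform annotation names exactly 1 gene and whose symbol is that of a laminin chain, a nidogen, perlecan (Hspg2), agrin (Agrn) or one of most integrin subunits, with Itgb2 left out by the rule. This gave 79 probe sets for 36 genes, out of 34945 single-gene probe sets for 18193 genes on the array. The rule reads gene symbols and no signal. Immature wild type CD-1 mice, 24 to 28 days old, had received 5 IU of pregnant mare serum gonadotropin, which grows follicles to the preovulatory stage. They received 5 IU of human chorionic gonadotropin (hCG), which starts ovulation, 48 h later. Oil vehicle or ulipristal acetate, a drug that acts on the progesterone receptor and is taken as emergency contraception, was given 2 h after hCG. Whole ovaries were collected at 11 h, and the labels do not say from which injection this is counted. Each treatment has 1 array, and the number of mice behind each RNA sample is not stated in the labels.

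Laminins are cross-shaped proteins of an alpha, a beta and a gamma chain that form a sheet at the base of epithelia, around vessels and around muscle. In the ovary such sheets enclose each follicle, lie under the surface epithelium and surround capillaries, and the sheet around a follicle is broken and rebuilt when it ruptures and becomes a corpus luteum. Integrins are receptors of an alpha and a beta subunit that bind laminins, collagens or other matrix proteins outside the cell and couple them to the actin skeleton inside. The alpha subunit largely sets which matrix protein is bound.

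Values are MAS5 signals, which combine the probes of a probe set into a single intensity in arbitrary units, scaled to a trimmed mean of 150.001 on both arrays. Each ratio is the log2 signal on the ulipristal array minus that on the vehicle array, so a value below 0 means lower after ulipristal. A gene was represented by its brightest probe set and counted as measured where the mean log2 signal corresponded to 30.8 or more, the median of all probe sets. Of the 36 member genes 28 were measured, beside 11364 genes in all. A single array per treatment leaves animal and array variation unmeasured, so no test, standard deviation or p-value can be given. Every difference below is between these 2 RNA samples. In whole ovaries, fewer cells of a type and less RNA per cell cannot be told apart. Granulosa markers were measured for 11 of 11 genes and oocyte markers for 8 of 10, which are the defining cells of the labelled tissue.

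Most laminin and integrin messages differed little between the arrays, and 1 integrin gene passed 2-fold. Of the 28 measured members 0 were at least 2-fold higher, where 3.34% of all measured genes were, and 1 was at least 2-fold lower, where 1.56% were. That gene was Itga2, a collagen receptor subunit. At 1.5-fold, 3 members were higher (12.3% of all measured genes) and 1 was lower (4.58%). The 3 higher ones were the laminin chains Lama3, Lamc3 and Lama5. The median log2 ratio of the members was 0.11, beside 0.09 for all measured genes, and their middle 50% ran from -0.22 to 0.32, beside -0.15 to 0.36. Laminins and linkers had a median of 0.22 over 13 measured genes, and integrin subunits one of 0.04 over 15. The plot of signals shows most pairs of points close together.

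**Figure D1:**
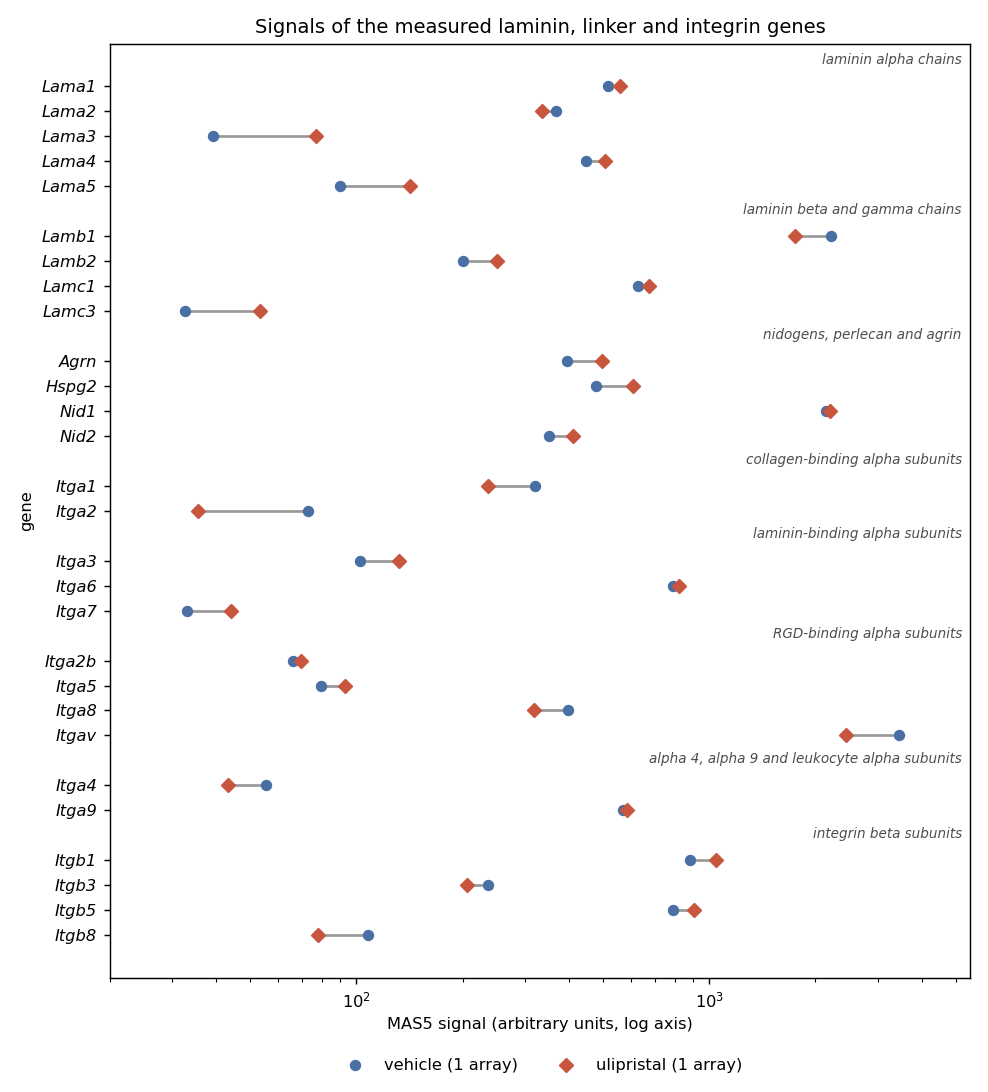
MAS5 signal (arbitrary units, log axis) of the 28 measured member genes on the vehicle array (circles) and the ulipristal array (diamonds), 1 array each, grouped by role. Itga2 has the widest gap to the left (72.9 to 35.5) and Lama3 the widest to the right (39.2 to 77.0), whereas Nid1, Itga6 and Itga9 nearly overlap; signals of different genes are not comparable with each other.

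Of the laminin alpha chains, which carry the main integrin-binding site, 4 of 5 had log2 ratios above 0 and none passed 2-fold. Lama3, the alpha chain of the laminin that anchors stratified and glandular epithelia, read 39.2 after oil and 77.0 after ulipristal. Its log2 ratio of 0.97, a 1.96-fold difference, was the highest of any measured member and lay just short of 2-fold, and 3.63% of all measured genes had a ratio at least as high. The second Lama3 probe set was too dim to be measured, with signals of 9.52 and 5.23.

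Lama5, the alpha chain of most adult epithelial and vascular basement membranes, had signals of 89.7 and 141.7, a 1.58-fold difference. Its other measured probe set gave 86.2 and 92.1, so that the log2 ratios of the pair were 0.66 and 0.10. They share a direction and differ in size.

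The remaining alpha chains differed by less than 1.5-fold. Lama1, typical of embryonic and some gland basement membranes, read 517 with vehicle and 559 with ulipristal. Lama4, the alpha chain of vessel walls, read 446 and 506. Lama2, the chain of muscle and nerve basement membranes, read 367 and 335 and was the only alpha chain below 0. These 3 genes had log2 ratios from -0.13 to 0.18, each on a single measured probe set.

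Beta and gamma chains, which complete the trimer, gave no common direction. Lamc3, a gamma chain of restricted distribution, had signals of 32.6 and 53.2 on one probe set and 31.1 and 51.1 on the other. The log2 ratios were 0.71 and 0.72, close to each other, although both probe sets lie near the signal limit for measured genes. Lamc1, the gamma chain shared by most laminins, read 627 and 674, a log2 ratio of 0.10. Its second measured probe set read 43.99 and 22.9, a log2 ratio of -0.94, so the direction of Lamc1 depends on the probe set.

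Lamb1, the most widespread beta chain, read 2207 with vehicle and 1752 with ulipristal, a 1.26-fold lower value. Log2 ratios of its 4 measured probe sets ran from -0.93 to 0.43, a wider range than the difference itself. Lamb2, the beta chain of mature kidney and synaptic basement membranes, read 201 and 250. Lamb3, the beta partner of Lama3, was too dim to be measured, with signals of 10.9 and 11.5. The higher Lama3 signal was thus not accompanied by a bright Lamb3 signal on either array.

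The proteins that link laminin to the rest of the sheet all had log2 ratios above 0, from 0.03 to 0.36, except that Nid1 turned to -0.03 under median centring and to -0.19 with the median over its probe sets. None reached 1.5-fold. Hspg2, the heparan sulfate proteoglycan perlecan, read 476 and 609, and its second probe set read 260 and 333. The log2 ratios of 0.36 and 0.35 were the closest of any member with more than 1 measured probe set. Agrn, the proteoglycan agrin, read 395 and 498.

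Nid1 and Nid2 encode nidogens, which bridge laminin and type IV collagen. Nid1 read 2150 and 2197 on its brightest probe set and 271 and 204 on the second, log2 ratios of 0.03 and -0.41. Nid2 read 352 and 410, a log2 ratio of 0.22 on a single probe set.

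Of the integrin alpha subunits, the 2 measured collagen receptors were both lower on the ulipristal array. Itga2, an alpha subunit that pairs with Itgb1 and is known from epithelia and platelets, read 72.9 after oil and 35.5 after ulipristal. This 2.05-fold lower value, a log2 ratio of -1.04, just passed 2-fold, and 1.42% of all measured genes had a ratio as low or lower. Itga2 has 1 probe set on the array, so nothing on the arrays repeats the measurement. With 50 added to every signal its log2 ratio was -0.52, and when only genes at or above the 75th percentile of signal counted, Itga2 was no longer measured. Its direction was the same under all 9 alternative settings that gave a value, and 8 of them left it past 2-fold. Those of floor, filter and probe set choice could not change the value of its 1 probe set. Median centring, quantile normalization and lowess centring gave -1.10, -1.16 and -1.16.

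Itga1, the collagen receptor subunit of stromal and smooth muscle cells, read 321 with vehicle and 236 with ulipristal, a log2 ratio of -0.44. Its second probe set read 54.8 and 35.5, a log2 ratio of -0.63. Both probe sets were lower, by less than 2-fold. The third collagen-binding alpha subunit among the members, Itga10, known from cartilage, was too dim to be measured (21.8 and 26.7).

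Itga2 and Itga1 also lie side by side: in the order of protein-coding genes in the RefSeq table (GRCm38.p6) they were the only members with no other such gene starting between them. Both are on chromosome 13, on the minus strand. Their promoters are printed because these neighbours were both lower. Each line gives the 250 bases upstream of the annotated start from RefSeq, build GRCm38.p6, 5′ to 3′ on the gene's strand. Itga2 is chr13:114932101-114932350 and Itga1 is chr13:115101965-115102214. Capitals mark AGAACA or its complement, the hexamer that the progesterone and glucocorticoid receptors bind.
Itga2: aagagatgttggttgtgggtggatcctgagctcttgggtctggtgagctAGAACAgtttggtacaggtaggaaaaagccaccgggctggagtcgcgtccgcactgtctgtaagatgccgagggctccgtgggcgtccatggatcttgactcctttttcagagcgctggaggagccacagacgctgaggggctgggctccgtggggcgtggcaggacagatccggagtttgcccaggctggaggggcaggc
Itga1: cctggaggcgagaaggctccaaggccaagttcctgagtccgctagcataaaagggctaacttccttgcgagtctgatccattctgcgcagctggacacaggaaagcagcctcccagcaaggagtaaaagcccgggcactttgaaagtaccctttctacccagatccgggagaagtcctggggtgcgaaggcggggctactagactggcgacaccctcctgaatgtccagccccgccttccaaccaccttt

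The hexamer was found at position -201 of the Itga2 window, counted back from the start, and not in the Itga1 window. Over windows of 300 bases (250 before and 50 after a start, both strands), 24 of the 36 member genes had an entry. Of these 24, 6 held AGAACA (25%), where 21.3% of all genes with a window did. They were Itga2, Itgax, Itgb1, Itgb7, Lama2 and Lamb3, which include genes with log2 ratios on either side of 0. GGGCGG, the box bound by SP1, was in 13 of 24 (54.2%, beside 38.2% of all genes). TGANTCA, the AP-1 site, was in 3 of 24 (12.5%, beside 8.97%). TGACGTCA, the cyclic AMP response element, was in 0 of 24, beside 2.03% of all genes. No motif contains another. A match is a string of letters in the reference and no evidence of binding here.

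The alpha subunits classed here as laminin-binding, Itga3, Itga6 and Itga7, had log2 ratios above 0 on their brightest probe sets. Itga3, a receptor of epithelial laminins, read 103 and 132, a log2 ratio of 0.36. Its other 2 probe sets were too dim to be measured, with 3.66 and 24.2 on one and 3.77 and 8.77 on the other. Itga6, which pairs with Itgb1 or Itgb4, read 788 and 820 on one probe set and 414 and 365 on the other, log2 ratios of 0.06 and -0.18. Itga7, the laminin receptor of muscle, read 33.2 and 44.2 near the signal limit. None of the 3 reached 1.5-fold. The sign of Itga6 turned under median centring (-0.0029) and with the median over its probe sets (-0.06).

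Alpha subunits that recognise the arginine-glycine-aspartate motif of fibronectin, vitronectin and related ligands went both ways. Itgav, which pairs with several beta subunits and takes part in the activation of latent TGF-beta, read 3440 with vehicle and 2449 with ulipristal. This was 1.40-fold lower, a log2 ratio of -0.49, and 6.31% of all measured genes had a ratio as low or lower. A second measured Itgav probe set read 78.5 and 35.2, a log2 ratio of -1.16, and the other 3 were too dim. Itgav was lower under all 10 alternative settings, with log2 ratios from -0.82 to -0.34. Those of floor and filter could not change its value.

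Itga5, the main fibronectin receptor subunit, gave opposite directions within the same pair of RNA samples. Its brightest probe set read 79.6 and 92.7, a log2 ratio of 0.22. That probe set belongs to the kind that can bind several transcripts. The other measured ones read 94.2 and 37.0 (log2 ratio -1.35) and 56.0 and 29.3 (log2 ratio -0.94). No direction is therefore given for Itga5. Without probe sets that can bind several transcripts, Itga5 joined Itga2 past 2-fold lower, beside 1.61% of all genes under that setting.

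Itga8, a receptor of mesenchymal and smooth muscle cells, read 399 and 320 on one probe set and 28.1 and 35.4 on the other, log2 ratios of -0.32 and 0.34. Itga2b, the platelet fibrinogen receptor subunit, read 66.2 and 69.7. The difference was 1.05-fold, and quantile normalization and lowess centring turned its sign (-0.06 and -0.05). Platelet markers summed to 268 and 270 over 8 genes, of which Gp6 was below the floor of 7.17 on both arrays. Only 2 of the 8 were bright enough to be measured, Pf4 (143 and 157) and Gp1bb (29.0 and 34.4).

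Itga4, known from leukocytes and mesenchyme, read 55.5 and 43.2, and its second measured probe set 42.2 and 38.2. Both were lower by less than 1.5-fold. Itga9, a related subunit, read 569 and 585, and its 3 probe sets spanned log2 ratios of -0.30 to 0.33. The sign of the first turned under median centring (-0.02). The 3 leukocyte alpha subunits among the members were too dim to be measured. Itgae, of lymphocytes lodged in epithelia, had signals of 10.5 and 5.03. Itgal, of lymphocytes, had 11.9 and 30.8, and Itgax, of dendritic cells and some macrophages, 5.85 and 18.8. Macrophage markers summed to 1816 with vehicle and 2154 with ulipristal over 8 genes, none below the floor on both arrays. Neutrophil markers summed to 437 and 313 over 4 genes, and the 3 measured ones went both ways. S100a8 (202 and 73.5) and S100a9 (150 and 40.6) were past 2-fold lower, and Ltf (64.3 and 175) was past 2-fold higher. With 50 added to every signal the log2 ratio of Ltf was 0.98. Lymphocyte markers summed to 72.5 and 68.0 over 7 genes, of which 1 was bright enough to be measured. Cd2, Cd3e and Nkg7 were below the floor on both arrays. The part of these markers in the Itgax and Itgal values was not tested.

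Of the 4 measured beta subunits 2 had log2 ratios above 0 and 2 below, and none reached 1.5-fold. Itgb1, the partner of most matrix-binding alpha subunits, read 884 and 1047, with log2 ratios of 0.13, 0.24 and 0.28 over its 3 measured probe sets. The lower Itga1 and Itga2 values thus stood beside a higher value of their only known beta partner. Of the partners of Itgav, Itgb8, which presents latent TGF-beta, read 108 and 78.0 and was 1.38-fold lower, a ratio that 6.80% of all measured genes matched or went below. Itgb3 read 236 and 206, a log2 ratio of -0.19. Itgb5 read 790 and 906, and its 4 probe sets spanned log2 ratios of -0.14 to 0.22. The partners of Itgav therefore showed no common direction.

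Itgb4, the hemidesmosome subunit that pairs with Itga6 in epithelia, was too dim to be measured and had signals of 9.17 and 28.5. Itgb6, an epithelial partner of Itgav, read 3.68 and 9.64, and Itgb7, a leukocyte subunit, 24.98 and 33.4. Without the filter on signal Itgal, Itgax and Itgb4 were the members past 2-fold higher, beside 5.63% of all genes under that setting. Itga2 was the one past 2-fold lower, beside 2.53%.

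**Figure D2:**
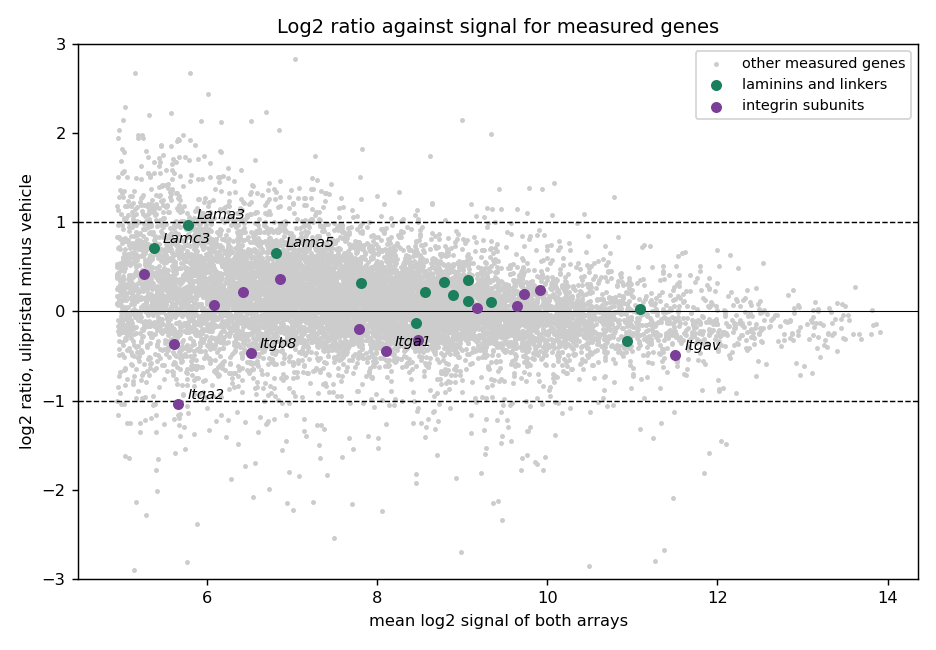
Log2 ratio (ulipristal minus vehicle) against the mean log2 signal of both arrays for the 11364 measured genes, each point a gene, with laminins and linkers in green and integrin subunits in purple; dashed lines mark 2-fold and 9 genes lie beyond the plotted range. Itga2 is the only member outside the dashed lines, at -1.04, and Lama3 lies just inside at 0.97.

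The size of a ratio went with the signal. Of the measured members 10 lay below a mean signal of 154, the 75th percentile of all probe sets, and their median absolute log2 ratio was 0.44. The other 18 had a median absolute log2 ratio of 0.21, beside 0.36 and 0.21 for all measured genes in the same ranges of signal. Lama3, Lama5, Lamc3 and Itga2 all belong to the dimmer 10, where 7.48% of all measured genes reached 2-fold upward and 1.76% downward. In the brighter range these shares were 0.822% and 1.43%. The 18 brighter members ran from -0.49 for Itgav to 0.36 for Hspg2, and none reached 1.5-fold.

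Probe sets of the same gene give the only repeated measurement on these arrays. Of 15 members with more than 1 measured probe set, 7 had all of them on the same side of 0, where 51.5% of such genes over the whole array did. These 7 were Hspg2, Itga1, Itga4, Itgav, Itgb1, Lama5 and Lamc3. The 2 brightest probe sets of a member differed by a median of 0.24 on the log2 scale, beside a median absolute ratio of 0.32 over all measured members. Both medians correspond to less than a 1.5-fold difference. The widest ranges were those of Itga5 (1.57), Lamb1 (1.35) and Lamc1 (1.05).

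**Figure D3:**
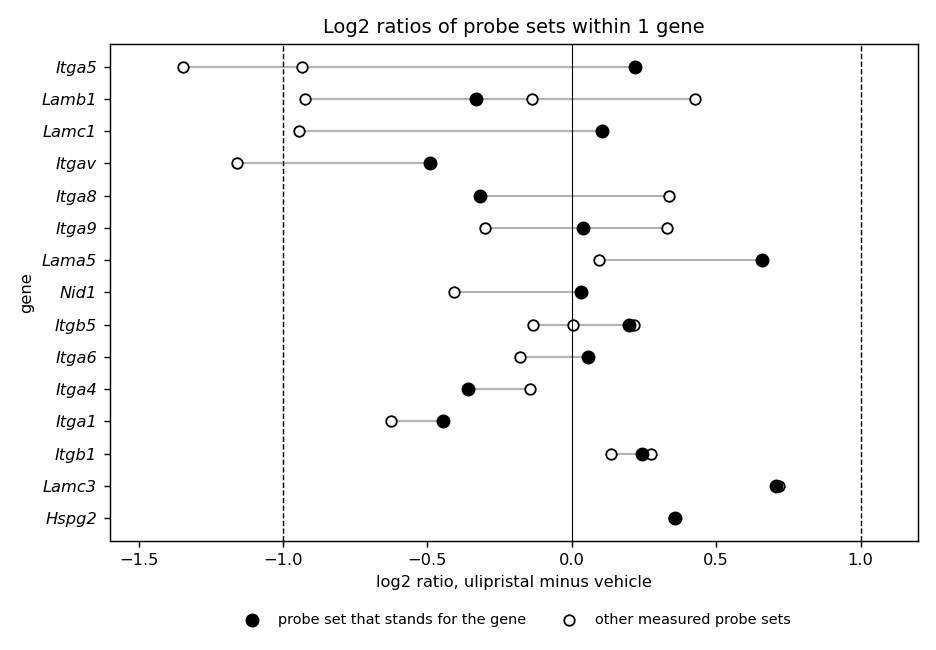
Log2 ratio (ulipristal minus vehicle) of every measured probe set for the 15 members with more than 1, filled where the probe set stands for the gene, ordered by the range within the gene; dashed lines mark 2-fold. Hspg2, Lamc3 and Itgb1 have points close together, whereas those of Itga5, Lamb1 and Lamc1 lie on both sides of 0.

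Genes that work beside the members were described in the same way, from lists of partners. Other basement membrane components had a median log2 ratio of 0.43, and of 17 measured genes 1 passed 2-fold upward and 0 downward. The gene was Tinagl1, a secreted protein that binds laminin and integrins, with signals of 133 and 376, a 2.83-fold difference. It passed 2-fold under all 10 alternative settings, but those of floor, filter and probe set choice could not change its 1 measured probe set. Median centring, quantile normalization and lowess centring gave log2 ratios of 1.44, 1.43 and 1.42, and the pseudocount of 50 gave 1.22. Of the 17 genes 13 had log2 ratios above 0 and 4 below. The abundant chains of type IV collagen in most basement membranes, Col4a1 and Col4a2, had signals of 8199 and 6879 and of 2966 and 2452. Both had log2 ratios below 0, as had Col4a3 (-0.09), whereas Col4a4 (0.40), Col4a5 (0.43) and Col4a6 (0.64) lay above 0.

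Laminin-binding surface molecules other than integrins gave a median of -0.20 over 7 genes, of which 1 passed 2-fold upward and 1 downward. With the median over probe sets the list's median turned to 0.05. Bcam, a receptor for the Lama5 chain, read 48.3 and 121.5, a 2.51-fold difference on a single measured probe set. With 50 added to every signal its log2 ratio was 0.80, short of 2-fold. Sdc4, syndecan 4, a proteoglycan that joins integrins in focal adhesions, read 1769 and 678 and was 2.61-fold lower. Dag1, the precursor of dystroglycan, was level at 2349 and 2274.

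Ligands of integrins other than laminin gave a median of -0.08 over 13 measured genes, of which 0 passed 2-fold upward and 1 downward. The latter was Ccn1, a secreted ligand of Itgav integrins and Itga6, with signals of 1589 and 315, a log2 ratio of -2.34, which became -1.49 without s and x probe sets. Without the filter on signal the list's median turned to 0.04. Fn1, fibronectin, the ligand of Itga5, read 2384 and 2699, and Ccn2, a relative of Ccn1, 2258 and 1148, just short of 2-fold. Adaptors and kinases on the inner side of integrins gave a median of 0.16 over 27 genes, of which 1 passed 2-fold upward and 0 downward. Parvb, parvin beta, which sits in the complex of integrin-linked kinase, read 471 and 1042, a 2.21-fold difference. Vcl, the actin-binding protein vinculin, read 3432 and 2140, a log2 ratio of -0.68.

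Of 5 measured tetraspanins and CD47, which sit beside integrins in the membrane, 0 passed 2-fold upward and 1 downward. This was Cd47, a partner of Itgav and Itgb3, with signals of 2409 and 1152 and a log2 ratio of -1.06. It passed 2-fold under 7 of 10 alternative settings, but those of floor, filter and s and x probe sets left its value unchanged. Median centring (-1.12) and the pseudocount of 50 (-1.03) kept Cd47 past 2-fold. Quantile normalization (-0.96), lowess centring (-0.98) and the median over its 4 measured probe sets (-0.81) left it short of 2-fold. Fn1, Ccn2, Vcl, Dag1 and the chains of type IV collagen were named after their values were seen, as were the markers Ovgp1 and Fabp4 below.

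**Figure D4:**
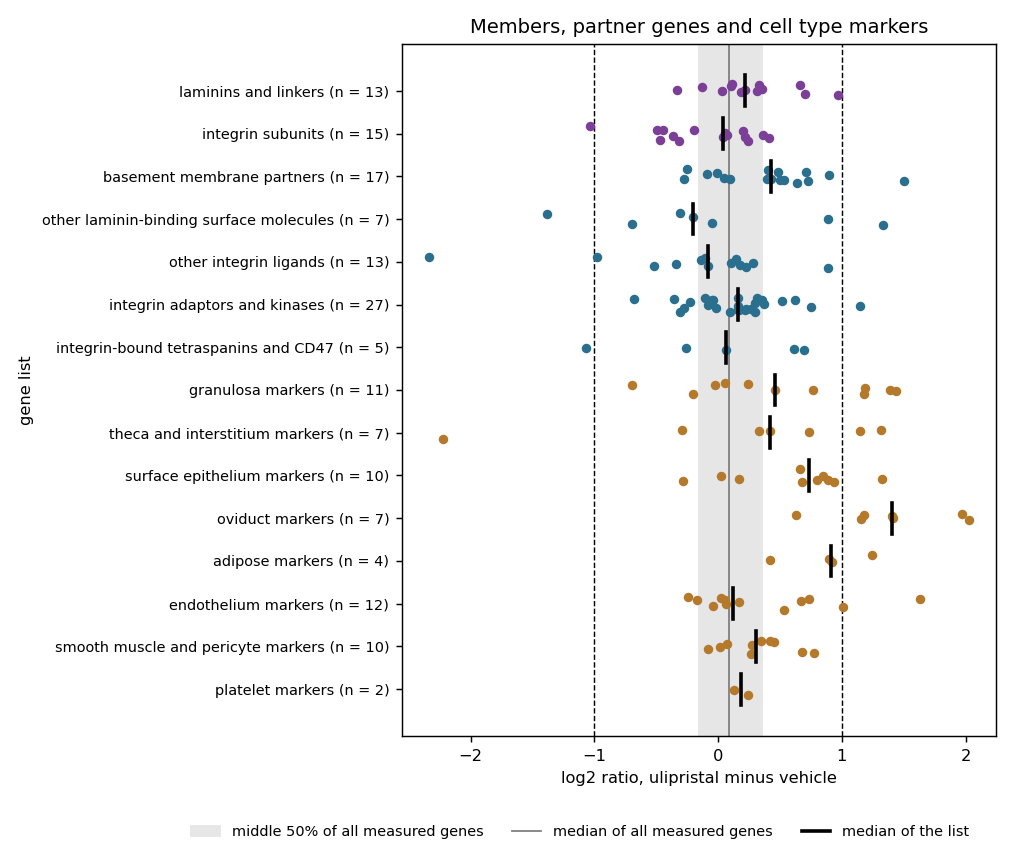
Log2 ratio (ulipristal minus vehicle) of each measured gene in the member families (purple), the partner lists (blue) and 8 lists of cell type markers (orange), with a black bar at each list's median and a grey band over the middle 50% of all measured genes; dashed lines mark 2-fold. Laminins and linkers (median 0.22) and integrin subunits (0.04) have medians inside the band. The basement membrane partners (0.43) lie to its right, as do the theca (0.42), granulosa (0.46), surface epithelium (0.74), adipose (0.91) and oviduct (1.40) markers. The other laminin-binding surface molecules (-0.20) lie to its left.

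Several lists of cell type markers had medians above the 0.09 of all measured genes. Surface epithelium markers had a median log2 ratio of 0.74 over 10 measured of 10, with 1 at least 2-fold higher (Epcam, an epithelial adhesion molecule, 107 and 268). Their summed signals were 1480 with vehicle and 2260 with ulipristal. Oviduct markers had a median of 1.40 over 7 measured of 8, with 6 at least 2-fold higher. Their summed signals were 3890 and 6396, mostly from Ovgp1 (3641 and 5642), the only measured one short of 2-fold. Such sums weigh the brightest genes of a list most. The largest ratios were those of the motile cilium genes Dynlrb2 (56.9 and 232.6) and Foxj1 (19.1 and 75.1). With 50 added to every signal, of the 6 only Dynlrb2 stayed past 2-fold, with a log2 ratio of 1.40. The others then had log2 ratios from 0.57 to 0.91, with Foxj1 at 0.86. No marker of either list was below the floor on both arrays. Of the members known from epithelia, Lama3, Lama5 and Itga3 read higher, Itga2 lower on its 1 probe set, and Itga6 gave 0.06 and -0.18. Itgb4 (9.17 and 28.5), Itgb6 (3.68 and 9.64) and Lamb3 (10.9 and 11.5) were too dim to be measured. The part of these markers in the member values was not tested.

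Granulosa markers had a median of 0.46 over 11 measured of 11 and summed signals of 21910 and 25904. Past 2-fold upward were 4 of them, the inhibin and activin subunits Inhbb and Inhba, the estrogen receptor Esr2 and the follicle-stimulating hormone receptor Fshr. Esr2 (0.67) and Fshr (0.71) were short of 2-fold on the log2 scale under the pseudocount of 50. Markers of theca and interstitium gave a median of 0.42 over 7 measured of 9, with summed signals of 5242 and 6522. Of these, Fabp3 and Tcf21 passed 2-fold upward and Hhip downward (280 and 60.0). Adipose markers had a median of 0.91 over 4 measured of 7, with Lep below the floor on both arrays. Their summed signals of 1936 and 2782 were mostly from Fabp4 (1602 and 2148). Their part in the member values was not tested either.

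Markers of vessels and muscle bear on Lama4, Lama2, Itga1, Itga7 and Itga8. Endothelial markers had a median of 0.12 over 12 measured of 12, summed signals of 2524 and 2979, and 2 genes at least 2-fold higher, Tie1 (log2 ratio 1.63) and Pecam1 (1.01). Pecam1 passed 2-fold under 5 of 9 alternative settings, but those 5 left the value of its 1 measured probe set unchanged. Median centring, quantile normalization and lowess centring gave log2 ratios of 0.95, 0.90 and 0.89, and the pseudocount of 50 gave 0.71. All of these were short of 2-fold. Tie1 had a log2 ratio of 0.76 with 50 added to every signal. Smooth muscle and pericyte markers had a median of 0.31 over 10 measured of 10, summed signals of 17062 and 18789, and none past 2-fold. Of the members named above, Lama4 (0.18) and Itga7 (0.41) had log2 ratios above 0, and Lama2 (-0.13) and Itga1 (-0.44) below. Itga8 gave -0.32 on its brightest probe set and 0.34 on the other. The part of the vessel and muscle markers in the member values was not tested.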

How the data were processed

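RNA of whole ovaries was measured on Affymetrix mouse arrays, 1 vehicle and 1 ulipristal sample, grouped by the treatment label. The authors deposited linear intensities, 1 for each probe set. MAS5 and Affymetrix Expression Console version 1 are named per the submitters' processing notes, with no genome build given in the sources used here. The mean without the lowest and highest 2% was 150.001 on both arrays, so these values cannot show a change common to most genes.

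Of 45101 probe sets, 34945 named 1 gene, and member symbols did not differ from the RefSeq table. Signals below 7.17, the 25th percentile, were set to it before log2. A gene was measured where its brightest probe set had a mean log2 signal at or above the median of non-control probe sets, and was called at 2-fold. For arrays, their number limits the precision. The members and gene lists were chosen with earlier results of these data known. All members could be named, and of each list the genes past 2-fold, up to 4, or else the 2 with the largest ratios. The steps were tested on simulated data. Alternatives changed scaling, floor, filter, pseudocount, choice of probe sets and fold. No protein sequences were used here. Tools were pandas 2.3.3 and numpy 2.4.6 under Python 3.11.15, with lowess from statsmodels 0.14.6 and plots from matplotlib 3.10.9.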

Additional observations from a re-analysis of the deposited data

How the results depend on the processing

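The number of members at least 2-fold higher (0) became 3 without the filter on signal, where 5.63% of all genes were. It became 3 at 1.5-fold, where 12.3% were, and stayed 0 under the other 10 alternatives. The number at least 2-fold lower (1) became 0 with the filter at the 75th percentile (1.43% of all genes) and 0 with a pseudocount of 50 (0.862%). It became 0 at 3-fold (0.502%) and 2 without s and x probe sets (1.61%), whose IDs mark probes that can bind several transcripts. The median log2 ratio of measured members stayed between 0.05 and 0.19, beside 0.02 to 0.11 for all measured genes. Of 28 members 21 kept their direction under every alternative that gave a value. The other 7 were Itga2b, Itga5, Itga6, Itga8, Itga9, Lamc1 and Nid1. Changes of floor and filter could not alter the value of a probe set above the floors. Itga5 went from 0.22 to -1.35 without s and x probe sets, since another probe set then stands for the gene. The filter at the 75th percentile left 18 members. Low signal limits Itga2, Lama3 and Lamc3, which lie near the lower limit for measured genes. No paired analysis was possible because there is 1 sample per treatment and the result comes from no test.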
